A study of Mus musculus with 4 samples.

Results

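Potassium channel genes and the genes of the hyperpolarization-activated HCN channels were examined in sorted cells of the mouse retina. The series text describes these cells as amacrine subtypes. The members were all genes of the count table with a symbol beginning in Kcn and a letter, and the 4 Hcn genes, apart from the G protein-gated subunits Kcnj3, Kcnj5, Kcnj6 and Kcnj9, pseudogenes and antisense transcripts ending in os. A summed count of at least 40 over the 4 libraries was required. This left 75 of 55471 genes, of which 73 are protein-coding. The noncoding RNAs Kcnq1ot1 and Kcnmb4os2 carry matching symbols and were kept by the rule. Another 22 symbols fell under the minimum, and 7 of these had no count in any library (Kcna7, Kcna10, Kcne3, Kcnj1, Kcnj15, Kcnk15 and Kcnk16). Just inside the minimum stood Kcnn3 with 75 summed counts and Kcng1 with 77, and just outside it Kcnmb3 with 33 and Kcnj8 with 28.

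RNA came from retinas of C57BL6 mice at postnatal days 6 to 7. All animals carried Gbx2-CreERT2-IRES-EGFP, in which the Gbx2 locus drives EGFP and a Cre recombinase that tamoxifen activates, and the Ai9 reporter, which makes tdTomato where Cre has acted and in the descendants of those cells. Flow cytometry split the tdTomato cells by EGFP. The GFP-positive fraction is represented here by replicates 2 and 3 and the GFP-negative fraction by replicates 2 and 6. The series text gives 750 to 2500 sorted cells per RNA sample and 4 biological replicates from 3 litters. It describes the fractions as amacrine subtypes; the gates rested on fluorescence alone.

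Potassium channels let potassium leave the cell and so set the resting potential, the width of action potentials and the firing rate. Voltage-gated channels are tetramers of pore-forming subunits, whose trafficking and inactivation are tuned by cytoplasmic partners such as the KChIP and Kv-beta proteins. Inward rectifiers and tandem-pore channels act near rest, calcium- and sodium-activated channels follow activity, and HCN channels carry a depolarizing current that opens on hyperpolarization. In retinal interneurons these channels shape graded signals as well as spikes.

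A gene was called in edgeR's quasi-likelihood test at a Benjamini-Hochberg adjusted p under 0.05 over all genes tested. Among the 75 genes, Kcnip4 was the only one called higher in GFP-positive cells, while Kcnip1, Kcnab1, Kcnk9, Kcnj12 and Kcns2 were called lower. These were 6 of 75 members, or 8%, against a background of 1.1% of the 17940 genes tested. By direction, the 5 lower members were 6.67% of the list against 0.87% of all genes, and the single higher member 1.33% against 0.234%. All 75 members passed the filter on low counts. Kcnn3 and Kcnv1 had no count in GFP-positive libraries and passed through the GFP-negative ones. Kcnj2, Kcng1, Kcng2, Kcnk12, Kcnk13 and Kcnq5 also had both libraries at the minimum count only in the GFP-negative fraction. Kcne1 and Kcns3 had both at it only in the GFP-positive fraction. The count rests on single libraries: it was 0 in edgeR without GFP-negative replicate 6 (4 members higher and 13 lower at an unadjusted p under 0.05, which 1.39% and 3.56% of all genes reach there) and 0 without GFP-positive replicate 3 (6 higher and 21 lower by the same measure, against 3.27% and 4.22% of all genes). The choice of edgeR's quasi-likelihood method also decides it: the package's default (legacy) method, which was run first, called 1 member, Kcnip4, and 48 genes in all, and the current method used here, chosen with both outcomes seen, called 6 members and 198 genes. In the legacy fit the edgeR adjusted p was 0.0470 for Kcnip4, 0.0571 for Kcnip1, 0.0591 for Kcnk9, 0.0622 for Kcnab1, 0.0799 for Kcnj12 and 0.104 for Kcns2. The legacy fit called 0.0725% of all genes higher and 0.195% lower. DESeq2 called 4 members higher (1.16% of all genes) and 15 lower (3.23%). Limma-voom called 1 member higher (0.0948% of all genes) and 2 lower (0.418%). An unadjusted edgeR p under 0.05 was reached by 6 higher members (5.24% of all genes) and 27 lower ones (7.34%). The 27 include Kcnn3, Kcnv1, Kcnj2 and Kcng2, and the DESeq2 lower calls include Kcnn3 and Kcnv1. Kcns3 is among the higher members by either measure. These genes passed the filter only through the fraction where they are high, so they add no support.

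A wider, untested description is that the CPM ranges of the fractions (CPM is the count scaled to a common effective library size) did not overlap for 48 of 75 members, 64% against 43.8% of all genes. GFP-positive cells were the lower ones for 36 members (48%, against 21.3% of all genes) and the higher ones for 12 (16%, against 22.5%). The 36 include Kcnn3, Kcnv1, Kcnj2, Kcng2 and Kcnk12, and the 12 include Kcne1 and Kcns3. These genes passed the filter only through the fraction where they are high. With 2 libraries a fraction, the smallest p that exact permutation of the labels can give is 0.333, so no such test was run for single genes. The median log2 fold change, GFP-positive over GFP-negative, was -0.47 over the members and 0.04 over all genes. Negative values were found for 53 of 75 members, and for 8532 of the 17940 genes tested. The 53 include Kcnn3, Kcnv1, Kcnj2, Kcng1, Kcng2, Kcnk12, Kcnk13 and Kcnq5, which reached the minimum count in both libraries only in the GFP-negative fraction. The members' median was -0.80 with GFP-negative replicate 2 omitted and -0.87 with GFP-positive replicate 2 omitted. Summed over the members, the libraries held 2866 and 2408 CPM in GFP-positive replicates 2 and 3, against 3440 and 4296 CPM in GFP-negative replicates 2 and 6. In bulk RNA, fewer cells with a transcript and less of it per cell cannot be told apart.

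**Figure D1:**
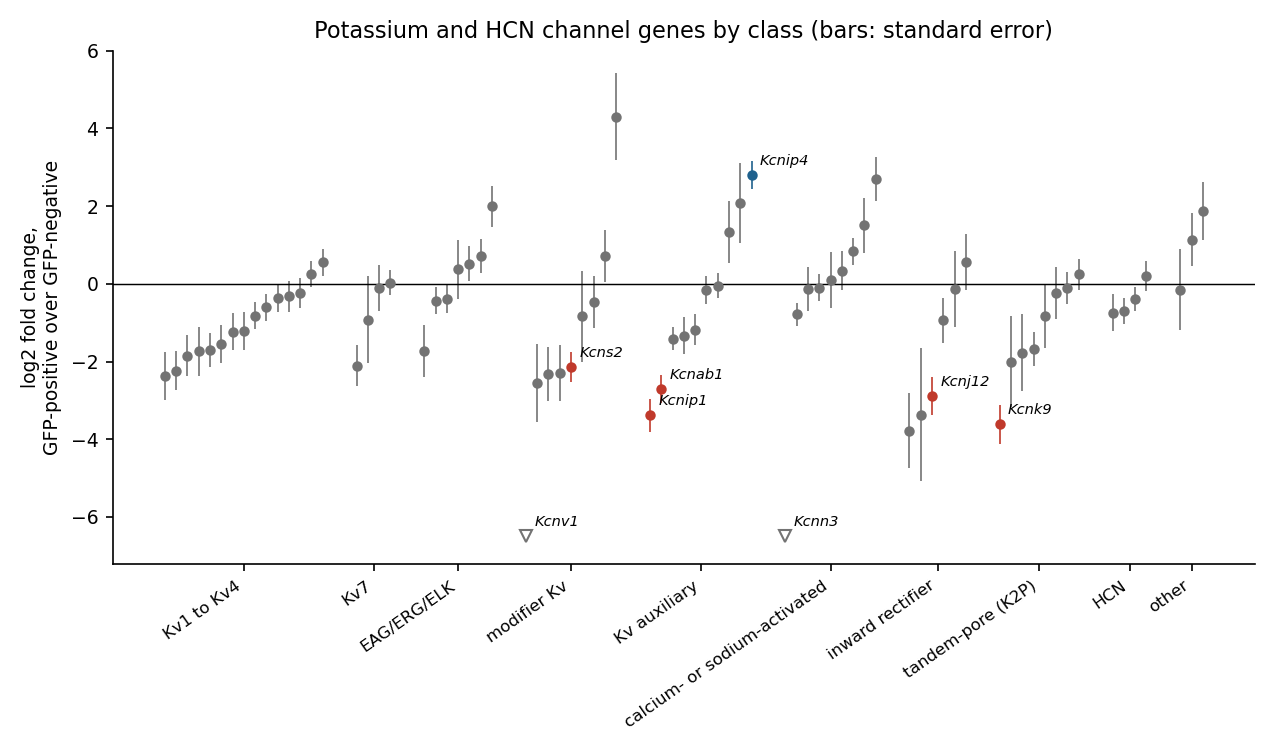
The plot gives the log2 fold change (GFP-positive over GFP-negative, vertical axis) of each of the 75 genes, grouped by channel class; bars are standard errors, blue (higher) and red (lower) points passed the edgeR threshold, and open triangles mark Kcnv1 and Kcnn3, which had no count in GFP-positive libraries and are drawn at the lower edge, off scale. Kcnip4 stands alone above 0 among the called genes, at 2.80.

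Depth, the sorted gene and marker levels were compared between the libraries. Total counts per library lay between 41040667 and 44689917. Gbx2, the gene behind the sort, had 602 and 496 CPM in GFP-positive replicates 2 and 3, against 28.7 and 55.5 CPM in GFP-negative replicates 2 and 6. All 12 amacrine markers had counts in every library; they summed to 2661 and 1845 CPM in GFP-positive libraries, against 4104 and 6279 CPM in GFP-negative ones, and 5 of the 12 were called lower (Tfap2c, Gad1, Gad2, C1ql1 and C1ql2). The other 7 summed to 2347 and 1697 CPM in GFP-positive libraries, against 2001 and 2939.7 CPM in GFP-negative ones, which overlapped. Pax6 was most of that sum, at 1972 and 1286 CPM in GFP-positive libraries, against 1469 and 2245 CPM in GFP-negative ones. Of the 12 markers, 11 had a negative log2 fold change and 1 a positive one. Over all 17940 genes tested, 8532 were negative and 9408 positive. All 16 rod photoreceptor markers also had counts in every library, with sums of 10580 and 18228 CPM in GFP-positive replicates 2 and 3, against 9223 and 2331 CPM in GFP-negative replicates 2 and 6; none was called. Across all genes, the least different pair of libraries was GFP-positive replicate 2 with GFP-negative replicate 2, whose counts gave a chi-square per degree of freedom of 131, against 146 within the GFP-positive and 177 within the GFP-negative fraction. The part of rod RNA and of the makeup of the sorted cells in the differences below was not tested.

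The promoter windows of the KChIP pair that went opposite ways, Kcnip4 and Kcnip1, and those of Kcnab1 that held a motif match are shown here so that a reader can see the sequence at the annotated starts of genes that changed. Each is 300 bases from RefSeq (GRCm38.p6), on the gene's strand, with 250 bases before the start. A lone capital marks the annotated start base, and a run of 6 capitals marks an E-box, CACGTG.
Kcnip4, chr5:49285610-49285909, minus strand: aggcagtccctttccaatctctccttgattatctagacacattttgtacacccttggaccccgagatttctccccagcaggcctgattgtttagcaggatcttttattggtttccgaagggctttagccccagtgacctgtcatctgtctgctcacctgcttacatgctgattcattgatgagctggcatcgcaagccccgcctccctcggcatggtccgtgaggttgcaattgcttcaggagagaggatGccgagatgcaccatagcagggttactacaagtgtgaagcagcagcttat
Kcnip4, chr5:48599633-48599932, minus strand: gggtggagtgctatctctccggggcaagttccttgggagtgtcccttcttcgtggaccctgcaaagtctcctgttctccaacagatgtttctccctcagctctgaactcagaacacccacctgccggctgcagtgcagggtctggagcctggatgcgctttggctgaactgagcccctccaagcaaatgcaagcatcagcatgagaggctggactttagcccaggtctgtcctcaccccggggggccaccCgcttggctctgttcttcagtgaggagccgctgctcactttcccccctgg
Kcnip1, chr11:33993144-33993443, minus strand: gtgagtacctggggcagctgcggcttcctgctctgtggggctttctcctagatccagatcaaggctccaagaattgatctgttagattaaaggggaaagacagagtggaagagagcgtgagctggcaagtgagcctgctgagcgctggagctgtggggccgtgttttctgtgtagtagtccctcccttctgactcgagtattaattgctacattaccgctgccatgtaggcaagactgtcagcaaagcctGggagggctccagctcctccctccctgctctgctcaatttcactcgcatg
Kcnip1, chr11:33843637-33843936, minus strand: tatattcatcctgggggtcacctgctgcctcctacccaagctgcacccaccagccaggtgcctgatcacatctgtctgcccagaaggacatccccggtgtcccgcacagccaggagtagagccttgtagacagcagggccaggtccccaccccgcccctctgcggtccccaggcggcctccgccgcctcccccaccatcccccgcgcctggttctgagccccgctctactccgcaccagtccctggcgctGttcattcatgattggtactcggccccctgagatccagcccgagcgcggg
Kcnip1, chr11:33680633-33680932, minus strand: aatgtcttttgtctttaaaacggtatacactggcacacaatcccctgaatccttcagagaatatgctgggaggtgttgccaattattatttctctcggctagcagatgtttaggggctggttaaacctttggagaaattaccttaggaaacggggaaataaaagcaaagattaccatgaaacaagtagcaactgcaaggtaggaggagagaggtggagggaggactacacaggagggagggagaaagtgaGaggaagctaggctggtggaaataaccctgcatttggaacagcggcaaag
Kcnab1, chr3:65108764-65109063, plus strand: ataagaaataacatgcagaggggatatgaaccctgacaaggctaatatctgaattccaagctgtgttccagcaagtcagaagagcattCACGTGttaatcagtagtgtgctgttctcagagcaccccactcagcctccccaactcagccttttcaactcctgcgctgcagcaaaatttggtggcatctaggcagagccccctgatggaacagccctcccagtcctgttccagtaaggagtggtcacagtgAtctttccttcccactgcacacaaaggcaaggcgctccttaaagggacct
Kcnab1, chr3:65187853-65188152, plus strand: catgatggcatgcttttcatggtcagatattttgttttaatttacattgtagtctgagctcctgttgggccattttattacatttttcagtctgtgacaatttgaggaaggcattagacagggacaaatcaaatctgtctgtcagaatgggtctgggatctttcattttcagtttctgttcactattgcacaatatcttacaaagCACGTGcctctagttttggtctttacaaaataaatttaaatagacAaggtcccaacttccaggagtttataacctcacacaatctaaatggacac

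RefSeq windows were at hand for 51 members (74 windows) and for 4 of the 6 called genes (9 windows). Searched on both strands were the homeodomain core TAATTA, the T-box half-site GGTGTGA and the E-box CACGTG, none of which contains another; they were chosen with the results known. No member window held TAATTA, which 5.29% of all 32851 windows hold. GGTGTGA stood in 4 member windows (5.41%, against 3.98% of all), and CACGTG in 4 (5.41%, against 7.15%). In Kcnab1 the E-box began 162 bases upstream of one start and 45 bases upstream of another. The window of the first of these starts ends at 65109063, before the GENCODE M21 span of Kcnab1, which begins at 65109384. The last bases of that window were found in no GENCODE M21 transcript of Kcnab1. Those of the 3 Kcnip1 windows were likewise found in no transcript of Kcnip1. The counts are per gene, so they do not show which start was used, and a match of letters is not a binding site.

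KChIP proteins are calcium-binding subunits of Kv4 channels that control their surface level and inactivation. Kcnip4 (ENSMUSG00000029088, chromosome 5, 48389502 to 49524907, GRCm38) had 232 and 146 CPM in GFP-positive replicates 2 and 3, against 28.5 and 25.6 CPM in GFP-negative replicates 2 and 6. Both GFP-positive libraries were above both GFP-negative ones, by 2.80 ± 0.36 on the log2 scale (standard error; edgeR adjusted p = 0.0125). Kcnip1 (ENSMUSG00000053519, chromosome 11, 33629339 to 33993152) had 44.3 and 26.5 CPM in GFP-positive libraries, against 276 and 463 CPM in GFP-negative libraries. The libraries were apart in the other direction, at -3.39 ± 0.43 on the log2 scale (edgeR adjusted p = 0.0125). Kcnip3, also called DREAM or calsenilin, had 104 and 64.5 CPM in GFP-positive libraries, against 136 and 246 CPM in GFP-negative ones (-1.18 ± 0.40, edgeR adjusted p = 0.269). Kcnip2 was the least abundant of the family, at 5.53 and 7.65 CPM in GFP-positive libraries and 13.1 and 20.3 CPM in GFP-negative libraries (-1.33 ± 0.48, edgeR adjusted p = 0.294).

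Set per kilobase of exon, so that genes can be compared, the makeup of the KChIP family differed between the fractions and was close between libraries of a fraction. Kcnip4 made up 62.6% and 62.0% of the family's level in GFP-positive replicates 2 and 3, against 8.32% and 4.50% in GFP-negative replicates 2 and 6. The share of Kcnip1 was 7.00% and 6.58% in GFP-positive libraries, against 47.1% and 47.6% in GFP-negative libraries. Kcnip3 held 28.9% and 28.0%, against 40.6% and 44.2%, in the same order of fractions. Shares within a library do not depend on its scaling; they were chosen for description after the levels were seen and carry no test. A short stretch of Kcnip4 exons (4.63% of their bases) is also exonic in the opposite-strand gene 5730480H06Rik, which stood at 24.0 and 16.3 CPM in GFP-positive libraries and 15.5 and 21.0 CPM in GFP-negative libraries. Without GFP-negative replicate 6, neither Kcnip4 (edgeR adjusted p = 0.174) nor Kcnip1 (0.0935) passed, and without GFP-positive replicate 3 the values were 0.0603 and 0.154. Kcnip1 also did not pass without GFP-positive replicate 2 (0.0543).

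**Figure D2:**
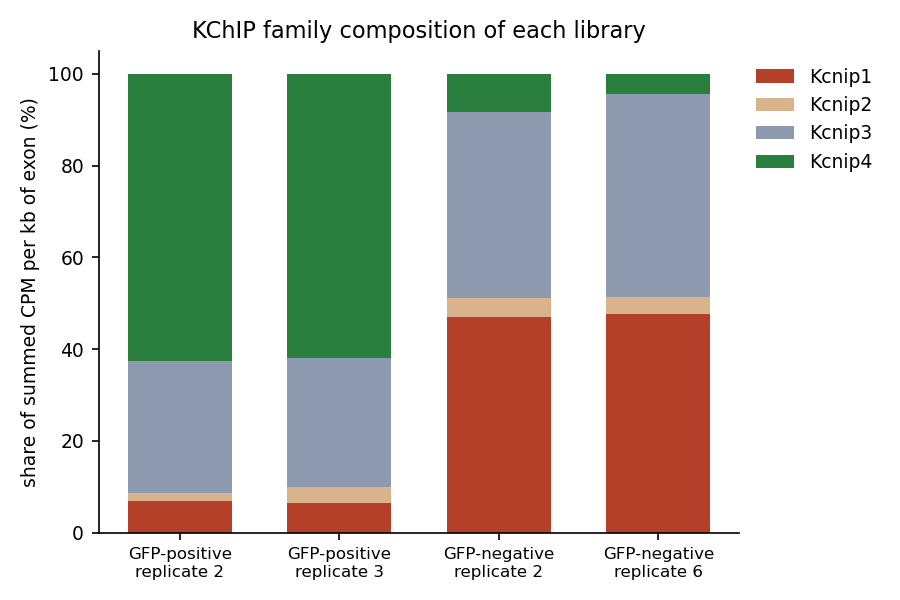
Each bar is a library, and its segments are the shares (percent) of the 4 KChIP genes in their summed CPM per kilobase of exon. Kcnip4 fills 62.6% and 62.0% of the GFP-positive bars, against 8.32% and 4.50% of the GFP-negative bars.

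Among the Kv-beta genes, which encode cytoplasmic subunits of Kv1 channels, Kcnab1 fell. Kcnab1 (ENSMUSG00000027827, chromosome 3, 65109384 to 65378223) had 27.8 and 15.5 CPM in GFP-positive replicates 2 and 3, against 139 and 143 CPM in GFP-negative replicates 2 and 6. The fractions were 6.53-fold apart in mean, with a log2 fold change of -2.71 ± 0.37 (edgeR adjusted p = 0.0154). That call was absent without GFP-negative replicate 6 (0.132) and without GFP-positive replicate 3 (0.122). Kcnab2 had 55.9 and 47.3 CPM in GFP-positive libraries, against 124 and 149 CPM in GFP-negative libraries (-1.41 ± 0.30, edgeR adjusted p = 0.0812). Kcnab3 stood at 32.3 and 29.5 CPM in GFP-positive and 35.8 and 27.9 CPM in GFP-negative libraries, with overlapping groups.

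Of the single-span KCNE subunits, none of 3 was called. Kcne1l had 23.8 and 36.9 CPM in GFP-positive and 38.6 and 29.2 CPM in GFP-negative libraries. Kcne1 was near the floor, at 1.05 CPM or less in each library. Kcne2 had 19.7 and 27.9 CPM in GFP-positive libraries, against 17.2 and 1.54 CPM in GFP-negative ones, and is taken up with the rod markers below. Over all 10 auxiliary genes 1 was called higher (0.234% of all genes) and 2 were called lower (0.87% of all genes). The class summed to 546 and 403 CPM in GFP-positive libraries, against 810 and 1106 CPM in GFP-negative libraries.

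**Figure D3:**
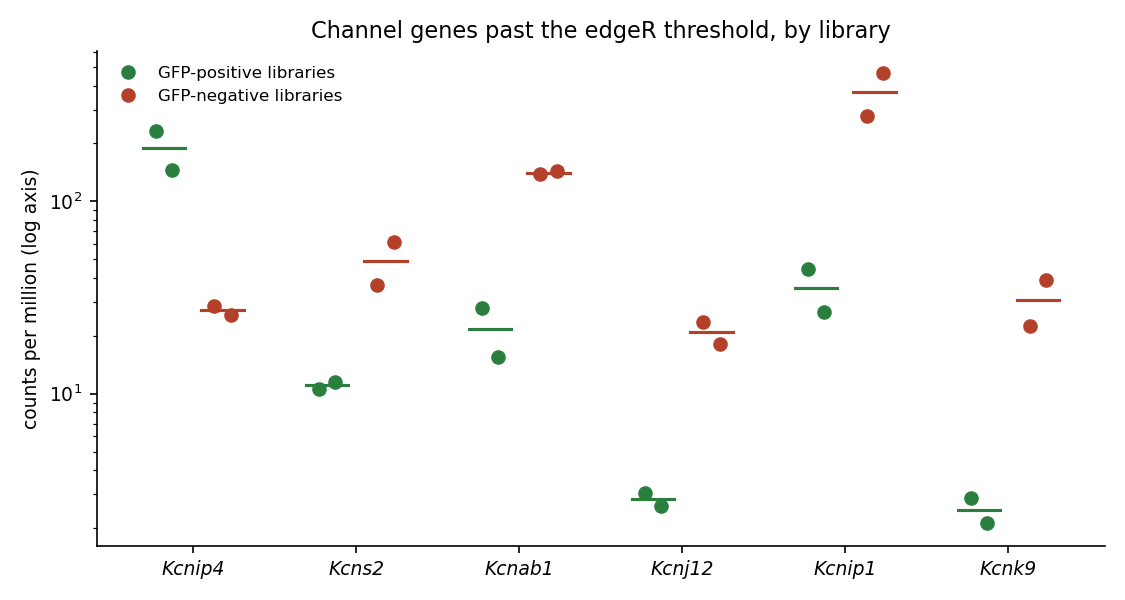
Points are the CPM (log axis) of each library for the 6 genes past the edgeR threshold, GFP-positive in green and GFP-negative in red; lines are means. Kcnip4 is the gene whose GFP-positive points (232 and 146) lie above its GFP-negative points (28.5 and 25.6).

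The pore-forming Kv1 to Kv4 genes had 13 of 15 negative log2 fold changes (8532 of 17940 over all genes tested), with a median of -1.21. Of these genes, 11 had GFP-positive libraries below both GFP-negative ones, as 21.3% of all genes did. None passed in edgeR or in limma-voom. An unadjusted edgeR p under 0.05 was reached by 9, each lower, against 7.34% of all genes, and by 3 when GFP-negative replicate 6 was omitted. DESeq2, which called 3.23% of all genes lower, called 4 lower here: Kcna1, Kcna3, Kcna4 and Kcnc4. The class summed to 1015 and 861 CPM in GFP-positive libraries, against 1214 and 1824 CPM in GFP-negative replicates 2 and 6. Per kilobase of exon, Kcna5, a Kv1 delayed rectifier subunit, had the highest level of all 75 members in both fractions, at a mean of 75.4 CPM per kilobase in the GFP-positive fraction and 175 in the GFP-negative fraction. It had 289.9 and 142 CPM in GFP-positive libraries, against 320.0 and 679 CPM in GFP-negative libraries (edgeR adjusted p = 0.350). It made up between 63.4% and 76.8% of the Kv1 level in each library.

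Kcna1, a low-threshold Kv1 subunit known for limiting repetitive firing, had 37.5 and 12.2 CPM in GFP-positive libraries, against 98.6 and 136 CPM in GFP-negative libraries. The groups were apart, and the log2 fold change of -2.24 ± 0.50 did not pass (edgeR adjusted p = 0.0916). Kcna4, an inactivating subunit, had 33.9 and 14.2 CPM in GFP-positive libraries, against 69.3 and 86.5 CPM in GFP-negative libraries (-1.70 ± 0.43, edgeR adjusted p = 0.147). Kcna3 and Kcna6, both Kv1 subunits, were also lower in each GFP-positive library without passing. Kcna3 had 14.7 and 5.43 CPM in GFP-positive libraries, against 26.4 and 45.8 CPM in GFP-negative libraries (edgeR adjusted p = 0.193). Kcna6 had 60.0 and 26.3 CPM in GFP-positive libraries, against 78.3 and 173 CPM in GFP-negative libraries (edgeR adjusted p = 0.252). Kcna2 overlapped between the fractions, at 39.0 and 26.2 CPM in GFP-positive and 29.2 and 52.3 CPM in GFP-negative libraries.

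Kv3 channels repolarize fast-spiking neurons. Kcnc1 had 124 and 79.8 CPM in GFP-positive libraries, against 134 and 177 CPM in GFP-negative libraries (-0.61 ± 0.34, edgeR adjusted p = 0.519). Kcnc2 overlapped, at 46.8 and 24.0 CPM in GFP-positive and 44.3 and 38.5 CPM in GFP-negative libraries. Within the Kv3 family, Kcnc1 was the main transcript per kilobase in every library, at 45.7% to 48.4%. Kcnc4 held 10.6% and 4.22% of the family level in GFP-positive replicates 2 and 3, against 21.9% and 29.7% in GFP-negative replicates 2 and 6.

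The Kv4 genes, whose channels are the KChIP partners, carry the A-type current of cell bodies and dendrites. Kcnd2 had 14.8 and 4.31 CPM in GFP-positive libraries, against 18.7 and 44.9 CPM in GFP-negative libraries (-1.73 ± 0.63, edgeR adjusted p = 0.303). Kcnd3 had 22.5 and 36.9 CPM in GFP-positive libraries, against 52.1 and 53.1 CPM in GFP-negative libraries (-0.83 ± 0.35, edgeR adjusted p = 0.379). Kcnd1 had 6.69 and 8.37 CPM in GFP-positive libraries, against 13.4 and 22.1 CPM in GFP-negative libraries (-1.23 ± 0.47, edgeR adjusted p = 0.322). All 3 Kv4 genes had GFP-positive libraries below both GFP-negative ones, as 21.3% of all genes did, and none passed. Dpp6 and Dpp10 encode the other auxiliary subunits of Kv4 channels. Dpp6 had 159 and 85.8 CPM in GFP-positive libraries, against 225 and 451 CPM in GFP-negative libraries (-1.47 log2 fold change, edgeR adjusted p = 0.231). Dpp10 overlapped, at 62.6 and 42.1 CPM in GFP-positive and 54.5 and 93.4 CPM in GFP-negative libraries.

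**Figure D4:**
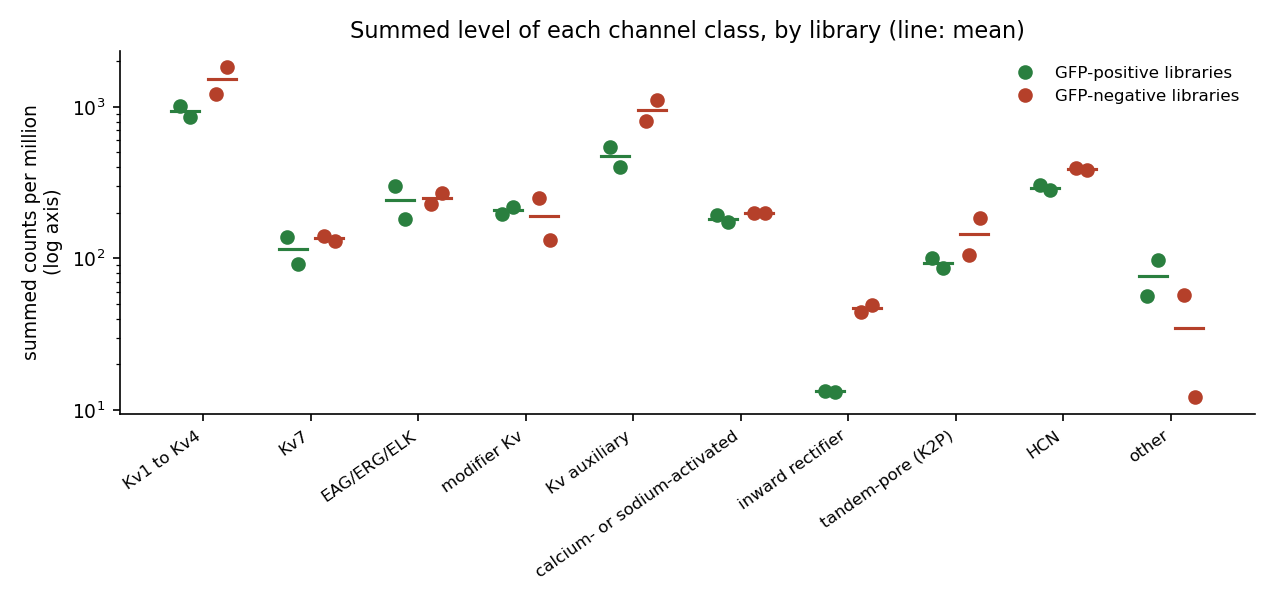
Points are the summed CPM (log axis) of each channel class in each library, GFP-positive in green and GFP-negative in red, with lines for means. The inward rectifier sums, 13.4 and 13.1 in GFP-positive against 44.6 and 49.4 CPM in GFP-negative libraries, are the lowest of the classes in GFP-positive cells.

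Modifier subunits of the Kv5, Kv6, Kv8 and Kv9 families form no channel alone but join Kv2 subunits. Kcns2 (ENSMUSG00000050963, chromosome 15, 34837355 to 34843407) fell: it had 10.6 and 11.5 CPM in GFP-positive replicates 2 and 3, against 36.5 and 61.5 CPM in GFP-negative replicates 2 and 6. The fold change on the log2 scale was -2.15 ± 0.39 (edgeR adjusted p = 0.0445). Leaving out GFP-negative replicate 6 gave an adjusted p of 0.441, leaving out GFP-positive replicate 3 gave 0.243 and leaving out GFP-positive replicate 2 gave 0.130. Kcnv1 had 0 counts in both GFP-positive libraries, against 119 and 548 counts in GFP-negative replicates 2 and 6. Kcnv1 was not called by edgeR (adjusted p = 0.0875) or limma-voom (adjusted p = 0.332). The lower call by DESeq2 is not counted, since the gene passed the filter only through the fraction where it is high. With 3 counts over the GFP-positive libraries as the floor, its mean was at least 282-fold lower in GFP-positive cells. The bound is 88.4-fold against GFP-negative replicate 2 alone and 476-fold against GFP-negative replicate 6 alone. The floor covers counting error only. Kcns3 ran the other way, with 3.15 and 6.50 CPM in GFP-positive libraries, against 0.454 and 0 CPM in GFP-negative libraries (edgeR adjusted p = 0.143). Kcns1, Kcnf1 and Kcng2 had GFP-positive libraries below both GFP-negative ones at low levels. Kcns1 had 1.12 and 0.946 CPM in GFP-positive libraries, against 4.40 and 5.78 CPM in GFP-negative libraries (edgeR adjusted p = 0.235). Kcnf1 had 1.22 and 2.25 CPM in GFP-positive libraries, against 5.52 and 12.04 CPM in GFP-negative libraries (edgeR adjusted p = 0.213). Of the 9 modifier genes, 1 was called lower (0.87% of all genes), and the median log2 fold change was -2.15. GFP-positive libraries were below both GFP-negative ones for 5 (21.3% of all genes). Kcnv1 and Kcng2, which passed the filter only through the GFP-negative fraction, are among the 5.

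Kv7 channels carry the M-current that restrains repeated firing. Kcnq3, a subunit of these channels, had 3.50 and 8.94 CPM in GFP-positive libraries, against 22.2 and 31.6 CPM in GFP-negative libraries. Those groups were apart, and the log2 fold change of -2.11 ± 0.52 did not pass (edgeR adjusted p = 0.132). Kcnq3 made up 1.97% and 8.99% of the Kv7 level per kilobase in GFP-positive replicates 2 and 3, against 13.9% and 19.3% in GFP-negative replicates 2 and 6. Of 4 Kv7 genes none was called by edgeR or limma-voom, and 1, Kcnq3, was lower at an unadjusted edgeR p under 0.05 (7.34% of all genes). DESeq2, which called 3.23% of all genes lower, called Kcnq3.

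In the EAG, ERG and ELK family, the ERG channel gene Kcnh2 was the most abundant per kilobase, with 152 and 86.1 CPM in GFP-positive and 135 and 174 CPM in GFP-negative libraries. Its groups overlapped. Kcnh8, an ELK subunit, had 15.05 and 10.9 CPM in GFP-positive libraries, against 2.89 and 3.60 CPM in GFP-negative libraries. GFP-positive libraries were both above, with a log2 fold change of 2.00 ± 0.53 that did not pass in edgeR (adjusted p = 0.159). None of the 7 genes passed in edgeR or limma-voom. At an unadjusted edgeR p under 0.05 there were 2, 1 higher (5.24% of all genes) and 1 lower (7.34%). DESeq2, which called 1.16% of all genes higher, called Kcnh8. Kcnh5, an EAG subunit, overlapped, at 94.5 and 37.9 CPM in GFP-positive and 41.6 and 39.1 CPM in GFP-negative libraries. The class median was 0.38, with no stable sign: it was -0.28 when GFP-positive replicate 2 was omitted and -0.09 when GFP-negative replicate 2 was omitted.

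The class of calcium- or sodium-activated channels was set by gene symbol, not by measured gating. It held 9 genes, and none passed. GFP-positive libraries were above both GFP-negative ones for 3 (22.5% of all genes) and below both for 2 (21.3% of all genes). Kcnn3 is among the 2 lower genes and passed the filter only through the GFP-negative fraction. Kcnt2, a sodium-activated subunit, had 17.3 and 12.996 CPM in GFP-positive replicates 2 and 3, against 1.67 and 3.04 CPM in GFP-negative replicates 2 and 6. The 2 fractions were apart (log2 fold change 2.696 ± 0.56, edgeR adjusted p = 0.0752), and the gene passed when genes were required to exceed 5 CPM in 2 libraries. Its paralog Kcnt1 overlapped, at 37.5 and 14.8 CPM in GFP-positive and 16.2 and 25.2 CPM in GFP-negative libraries, so that Kcnt2 made up 38.8% and 54.7% of their joint level per kilobase in GFP-positive libraries, against 12.5% and 14.3% in GFP-negative ones. Kcnn1, a small-conductance SK subunit, had 41.9 and 34.1 CPM in GFP-positive libraries, against 23.5 and 19.0 CPM in GFP-negative libraries (0.84 ± 0.34, edgeR adjusted p = 0.362). Kcnn2 overlapped, at 22.5 and 23.8 CPM in GFP-positive and 23.7 and 25.8 CPM in GFP-negative libraries; its sign was opposite with library size as the only scaling. Kcnn3 had 0 counts in both GFP-positive libraries, against 40 and 35 counts in GFP-negative libraries, and was at least 30.1-fold lower by the same floor. It was not called (edgeR adjusted p = 0.254).

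The pore gene of the large-conductance BK channel, Kcnma1, had 64.5 and 74.8 CPM in GFP-positive libraries, against 124 and 116 CPM in GFP-negative libraries. The groups were apart, with a log2 fold change of -0.79 ± 0.29 (edgeR adjusted p = 0.313). Kcnmb4, its neuronal beta subunit, had 3.72 and 4.54 CPM in GFP-positive libraries, against 1.10 and 1.84 CPM in GFP-negative libraries (1.51 ± 0.71, edgeR adjusted p = 0.428). The antisense transcript Kcnmb4os2 had 3.98 and 5.30 CPM in GFP-positive libraries, against 1.72 and 0.754 CPM in GFP-negative libraries (edgeR adjusted p = 0.341). It shares 693 exonic bases with Kcnmb4 on the opposite strand, so reads of the pair cannot be told apart if the counting ignored strand. Of 9 genes in the class, edgeR and limma-voom called none. At an unadjusted edgeR p under 0.05 there were 2 higher (5.24% of all genes) and 2 lower (7.34%), Kcnn3 among the lower. DESeq2 called Kcnt2 higher (1.16% of all genes). The lower call of Kcnn3 by DESeq2 is not counted, since that gene passed the filter only through the fraction where it is high.

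Inward rectifiers hold cells near the potassium equilibrium potential. Kcnj12 (ENSMUSG00000042529, chromosome 11, 61022564 to 61071131), a strong rectifier subunit, fell: it had 3.04 and 2.61 CPM in GFP-positive replicates 2 and 3, against 23.6 and 18.2 CPM in GFP-negative replicates 2 and 6. GFP-positive libraries were both below, at -2.89 ± 0.48 on the log2 scale (edgeR adjusted p = 0.0342). Dropping any single library ended the call, with edgeR adjusted p-values between 0.0763 and 0.208. Kcnj2, of the same subfamily, had 1.57 and 0 CPM in GFP-positive libraries, against 6.96 and 14.7 CPM in GFP-negative libraries (edgeR adjusted p = 0.146). Kcnj11, the pore subunit of ATP-sensitive channels, had 2.73 and 5.38 CPM in GFP-positive libraries, against 7.65 and 8.02 CPM in GFP-negative libraries (edgeR adjusted p = 0.553). Kcnj10, the channel of glial potassium buffering, was low and overlapping, at 3.32 and 0.778 CPM in GFP-positive and 3.73 and 0.614 CPM in GFP-negative libraries. Of 8 Müller glia markers, all with counts in every library, 6 had positive log2 fold changes (9408 of 17940 over all genes tested). The other 2 were negative, and 1 of them, Dkk3, was called lower (0.87% of all genes). Without Dkk3 the other 7 summed to 441 and 704 CPM in GFP-positive libraries, against 553 and 349.8 CPM in GFP-negative libraries, so the fractions overlapped. Dkk3 itself had 244 and 131 CPM in GFP-positive libraries, against 1008 and 1577 CPM in GFP-negative libraries.

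Tandem-pore (K2P) channels give the resting potassium leak. Kcnk9 (ENSMUSG00000036760, chromosome 15, 72501089 to 72546340), an acid-sensitive TASK subunit, had the largest mean fold difference of the called members. It had 2.87 and 2.12 CPM in GFP-positive replicates 2 and 3, against 22.4 and 38.9 CPM in GFP-negative replicates 2 and 6, a 12.3-fold lower mean (log2 fold change -3.62 ± 0.51, edgeR adjusted p = 0.0170). The edgeR adjusted p became 0.185 once GFP-negative replicate 6 was dropped. It was 0.131 after dropping replicate 3 and 0.0588 after dropping replicate 2 of the GFP-positive fraction. Kcnk2, the mechanosensitive TREK subunit, had 10.8 and 8.92 CPM in GFP-positive libraries, against 21.8 and 41.7 CPM in GFP-negative libraries (-1.68 ± 0.44, edgeR adjusted p = 0.155). Kcnk1, the most abundant of the class per kilobase, overlapped at 48.1 and 39.5 CPM in GFP-positive and 24.0 and 50.3 CPM in GFP-negative libraries. Kcnk3, a TASK subunit like Kcnk9, overlapped at 16.3 and 30.3 CPM in GFP-positive and 22.1 and 28.5 CPM in GFP-negative libraries, and its sign was opposite under 1 of the 3 other scalings. Of 8 genes, 1 was called lower (0.87% of all genes) and 7 had a negative log2 fold change (8532 of 17940 over all genes tested). Kcnk12 and Kcnk13, among the 7, reached the minimum count in both libraries only in the GFP-negative fraction.

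All 4 HCN genes had counts in every library, and none was called by edgeR, DESeq2 or limma-voom or had an unadjusted p under 0.05. Hcn3 had 54.8 and 36.4 CPM in GFP-positive libraries, against 66.5 and 82.2 CPM in GFP-negative libraries (-0.70 ± 0.33, edgeR adjusted p = 0.427). Hcn2 stood at 16.2 and 6.92 CPM in GFP-positive and 19.0 and 19.6 CPM in GFP-negative libraries, and Hcn4 overlapped at 37.9 and 30.0 CPM in GFP-positive and 20.7 and 38.4 CPM in GFP-negative libraries. Pex5l, which encodes the HCN trafficking subunit TRIP8b, had 148 and 189 CPM in GFP-positive libraries, against 94.1 and 37.0 CPM in GFP-negative libraries (log2 fold change 1.36, edgeR adjusted p = 0.255).

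Of 26 genes that encode channel partners without a Kcn or Hcn symbol, 24 were tested and none was called by edgeR or limma-voom. At an unadjusted p under 0.05 edgeR had 2 higher (5.24% of all genes) and 4 lower (7.34%). Abcc9, among the 2 higher, passed the filter only through the GFP-positive fraction. DESeq2, which called 3.23% of all genes lower, called Dpp6 and Lrrc38 lower. Lrrc38, a BK gamma subunit, had 3.26 and 1.41 CPM in GFP-positive libraries, against 14.5 and 26.0 CPM in GFP-negative libraries (-3.12, edgeR adjusted p = 0.0542); it was named after its value was seen. It passed in edgeR with RLE or upper-quartile scaling. Amigo1, the Kv2 partner, overlapped at 51.5 and 34.8 CPM in GFP-positive and 44.5 and 64.7 CPM in GFP-negative libraries. The median log2 fold change of the partners was -0.25, and omitting 1 library moved it to between -0.63 (GFP-positive replicate 2) and -0.05 (GFP-negative replicate 6).

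Some members were lowest in GFP-negative replicate 6, the library with the lowest rod marker sum. Kcnv2 is known as a photoreceptor subunit that joins Kv2 channels. Kcnv2 had 177 and 194 CPM in GFP-positive replicates 2 and 3, against 194 and 30.4 CPM in GFP-negative replicates 2 and 6. The rod sums were 10580 and 18228 CPM in GFP-positive libraries, against 9223 and 2331 CPM in GFP-negative libraries. Like the rod sum, Kcnv2 was lowest in GFP-negative replicate 6 and higher in GFP-positive replicate 3 than in GFP-positive replicate 2. Kcnv2 was about level between GFP-positive replicate 3 and GFP-negative replicate 2 (194.5 and 194.2 CPM), where the rod sums were 18228 and 9223 CPM. Its edgeR adjusted p was 0.711, and 0.0320 in the fit without GFP-negative replicate 2, where the remaining GFP-negative library is the one with the low rod sum. Kcne2 and the noncoding RNA Kcnq1ot1, picked for display after their values were seen, were lowest in the same library: Kcne2 at 1.54 CPM and Kcnq1ot1 at 9.22 CPM in GFP-negative replicate 6. Kcnq1ot1 had 50.3 and 91.8 CPM in GFP-positive libraries and 55.2 CPM in GFP-negative replicate 2. The part of rod, cone or bipolar RNA in these 3 genes was not tested.

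**Figure D5:**
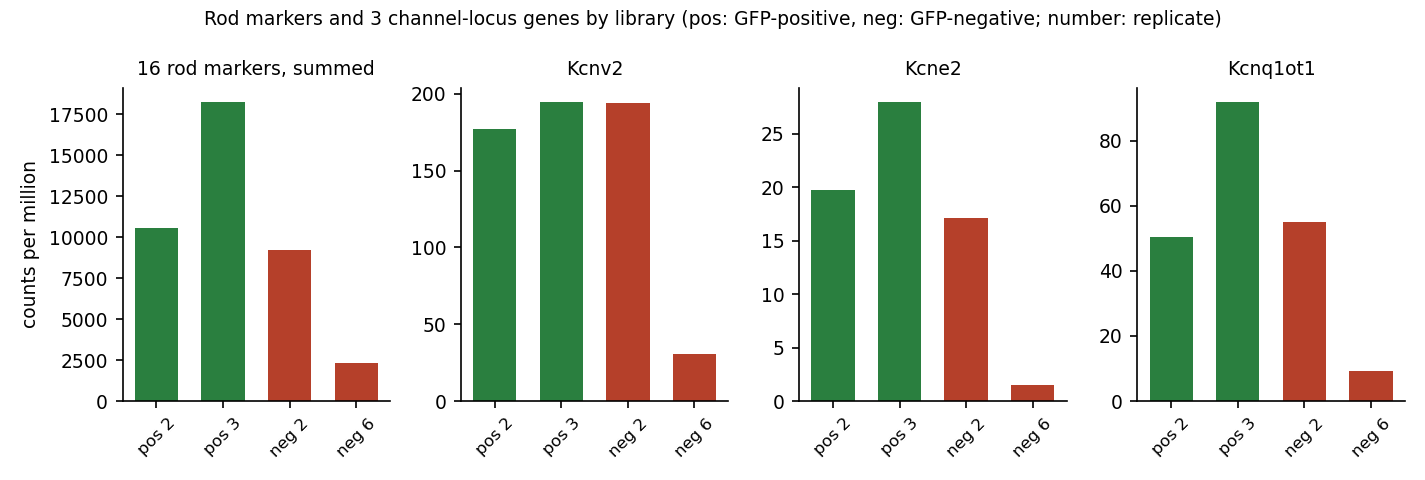
Bars give CPM in each library for the sum of 16 rod markers and for Kcnv2, Kcne2 and Kcnq1ot1, GFP-positive libraries first, each panel with its own axis from 0. GFP-negative replicate 6 has the lowest bar in all 4 panels, with 2331 CPM for the rod sum and 30.4 CPM for Kcnv2.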

How the data were processed

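RNA from 2 GFP-positive and 2 GFP-negative sorted samples was made into libraries with a Takara SMART-Seq kit for very small inputs, per the labels' protocols. The authors deposited raw read counts per Ensembl gene. The submitters' processing notes name Trimmomatic, STAR 2.7.3a, MultiQC, limma and GRCm38, without saying what each was used for. Neither the counting tool nor its strand setting is known from the labels. A further deposited table was not used.

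The comparison was GFP-positive minus GFP-negative in edgeR 4.0.16 (R 4.3.3): filterByExpr (minimum count 10, minimum total 15), TMM scaling, estimateDisp, robust glmQLFit and glmQLFTest. The plan did not name the quasi-likelihood method. The package default (legacy) was run first and called 48 genes and 1 member. The current method was then adopted, because it gives the number of called genes stated in an earlier account of these data; it calls 198 genes and 6 members. That choice was made with both outcomes seen, and the legacy values are given beside the first count of calls. Of 27925 genes with a count, 17940 passed the filter, with 2 residual degrees of freedom and a common biological coefficient of variation of 55.4%. Benjamini-Hochberg adjusted p under 0.05 was the threshold. Standard errors were taken as log2 fold change divided by the root of the F statistic, without sign. Per the series text, each animal gave 1 sample of each kind; the labels do not say that a replicate number names an animal. Coordinates and exon lengths are from GENCODE M21 (GRCm38), which held all 75 members. Reads have no molecular identifiers, so the floor of 3 counts covers counting error only.

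Most genes were named by rule: members past the threshold, the most abundant member per kilobase of each class, the 6 members with the smallest p short of the threshold in each direction, and a set list. The text also names members outside this rule, with their values known. Among them are Kcna3, Kcna6, Kcnab3, Kcnc4, Kcnd1, Kcnf1, Kcng2, Kcnh5, Kcnj11, Kcnk3, Kcnn3, Kcns1 and Kcnt1. Members, lists, motifs and rule were chosen with earlier results of these data known; some genes of the set list are not reported here. On counts simulated for this comparison over 17940 genes, with 50 genes changed per fold size, the share recovered was 0% for 2-fold, 32% for 4-fold, 48% for 8-fold and 64% for 16-fold changes; 8 of 80 calls were false. Alternatives covered scaling (RLE, upper quartile, library size alone), filtering (none, or over 5 CPM in 2 libraries), DESeq2 1.42.0, limma-voom 3.58.1, non-robust and legacy fits, and omission of each library.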

Additional observations from a re-analysis of the deposited data

How the results depend on the processing

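None of the 6 called members changed direction under any of the 13 alternatives, and the calls themselves depended on the fit and on single libraries. Members called were 1 higher and 5 lower. The lower count was 3 with library size as the only scaling, 2 in limma-voom and 0 in the legacy fit. That fit is edgeR's default, which was run first and became an alternative after both outcomes were seen. In DESeq2 the counts were 15 lower (Kcnn3 and Kcnv1 included) and 4 higher (Kcns3 included). The higher count was 2 with the stricter filter. All genes called, 198, became 106 without a filter, 787 in DESeq2, 92 in limma-voom and 48 in the legacy fit. Over the fits that left out 1 library, 0 to 2 members were called higher and 0 to 5 lower, 1 to 336 genes in all, and the members' median log2 fold change ran from -0.87 to -0.39. Genes called in all were 1 on omitting GFP-negative replicate 6, 5 on omitting GFP-positive replicate 3, 108 on omitting GFP-positive replicate 2, and 336 on omitting GFP-negative replicate 2. The lone library of a fraction is assumed there to vary like the other fraction. Library size as the only scaling moved the median of all genes to 0.21 and that of the members to -0.30, a difference of -0.50 against -0.51 with TMM. Under the 3 other scalings 7 members changed sign, none of them called. Of 43 named genes, 10 gained a call in DESeq2 and 5 lost theirs in the legacy fit. The causes were not tested. Simulated 4-fold changes were recovered in 32% of genes, so members without a call are not shown to be equal. No paired analysis was possible because the fractions share only replicate number 2.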
